A study of Homo sapiens with 8 samples.

Results

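Of the 594 mature miRNAs measured in H1 human embryonic stem cells, 8 come from hairpins that skip a step of the usual biogenesis route, and they were chosen by name. They are 5 miRNAs known to form without Drosha (miR-320a-3p, miR-320a-5p, miR-320b, miR-320c and miR-484), 2 mirtrons (miR-1227-3p and miR-1237-3p), and 1 miRNA known to form without Dicer (miR-451a). All 8 passed the filter on low values, as did all 594. They were measured by small RNA sequencing in cells homozygous for Dicer-S1344L, cells hemizygous for Dicer-S1344L, Dicer-null cells and wild-type cells, with 2 libraries per genotype. S1344L is a recurrent cancer substitution in Dicer, and per the series description the S1344L cells were engineered with CRISPR-Cas9. H1 is an established pluripotent line that all 4 genotypes share. The labels do not give the number of clones behind a genotype or the sequence of the other allele in hemizygous cells.

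A canonical miRNA is cut from its primary transcript by Drosha, and Dicer then cuts the hairpin into a 5p and a 3p arm. Of the catalytic domains of Dicer, RNase IIIa makes the cut on the 3p side and RNase IIIb the cut on the 5p side. The precursor of miR-320a is known to begin at a transcription start, with a cap, and to reach Dicer without Drosha, and it is known for giving almost solely its 3p arm. A mirtron is a short intron whose splicing, rather than Drosha, sets the ends of the hairpin. The hairpin of miR-451a is known to be too short for Dicer and to be cut by the slicer Argonaute-2 instead, and miR-451a is best known from red blood cell precursors.

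RefSeq sequences on GRCh38.p14 were used for 5 of the 8, and they are shown because the seeds separate the miR-320 family from the other 3. The mature miRNAs are given 5′ to 3′ with the seed, bases 2 to 8, in capitals.
miR-320b: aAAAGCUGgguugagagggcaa
miR-320c: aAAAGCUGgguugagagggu
miR-484: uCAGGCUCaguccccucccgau
miR-1227-3p: cGUGCCACccuuuuccccag
miR-1237-3p: uCCUUCUGcuccgucccccag
miR-320b and miR-320c share their seed and their first 19 bases, so how reads were split between them depends on the authors' counting. Overlap with miR-320a was not checked, because no sequence of it was used here. Among measured miRNAs with a sequence, none shares the seed of the other 3. miR-320b lies in MIR320B1 at chr1:116671787-116671808 on the plus strand, with no host gene on that strand in GENCODE release 29, and in MIR320B2 at chr1:224257049-224257070 on the minus strand, inside an intron of NVL. miR-320c lies on the plus strand in MIR320C1 at chr18:21683559-21683578 and in MIR320C2 at chr18:24321716-24321735, both with no host gene on that strand.

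The hairpins of the mirtrons and of miR-484 are printed next with the mature miRNA in capitals, because their ends separate the classes.
miR-1227 hairpin: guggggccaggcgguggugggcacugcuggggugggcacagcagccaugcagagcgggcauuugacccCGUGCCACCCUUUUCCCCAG
miR-1237 hairpin: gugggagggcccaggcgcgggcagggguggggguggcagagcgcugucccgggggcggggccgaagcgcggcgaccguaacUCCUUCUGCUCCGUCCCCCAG
miR-484 hairpin: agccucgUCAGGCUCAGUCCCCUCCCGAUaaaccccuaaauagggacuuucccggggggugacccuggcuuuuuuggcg
Both mirtron hairpins begin with GU and end with AG, the bases at the ends of a spliced intron, as do 36 of 1562 RefSeq hairpins (2.30%). In both, the mature 3p arm ends at the last base of the hairpin. The 88 bases of the miR-1227 hairpin (chr19:2234062-2234149, minus strand) are a whole intron of PLEKHJ1 in 9 of the 11 transcripts that span it. The 102 bases of the miR-1237 hairpin (chr11:64368602-64368703, plus strand) are a whole intron of RPS6KA4 in 4 of 4 transcripts. The miR-484 hairpin (chr16:15643294-15643372, plus strand) lies inside an exon of NDE1, and its first base is 27 bases from an NDE1 transcript start. Its mature miRNA takes bases 8 to 29 of 79, on the 5′ side, whereas the mature miRNAs of the other hairpins listed here lie on the 3′ side.

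Levels are RPM, reads scaled to a denominator that the authors set for each library and that is not the total of its miRNA reads. miRNA reads numbered 2289926 and 1814568 in the homozygous libraries, 1000101 and 1833057 in the hemizygous, 165317 and 137655 in the null, and 2680973 and 2725756 in the wild type. Hemizygous replicate 1 stood apart, with 0.729 miRNA reads per read of the denominator against 2.42 in replicate 2. The null libraries had 0.118 and 0.183. Spike-in RNAs were added per the labels, but whether the denominator counts them is not stated. Without that, less of a miRNA per cell and a change in everything it is scaled to cannot be told apart here. The main null results are therefore also given as shares of the miRNA reads, or with each library scaled to its own miRNA reads. The 8 pluripotent markers of the miR-302 and miR-371 clusters held between 38.1% and 52.3% of the summed miRNA RPM in every library.

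The 8 miRNAs together made up 0.190% and 0.167% of the miRNA reads in the homozygous libraries, 0.102% and 0.138% in the hemizygous, 0.200% and 0.211% in the null, and 0.463% and 0.508% in the wild type. The wild type had the highest share in both libraries. In wild-type cells miR-320a-3p was the most abundant (7247 ± 1431 RPM, SD, n = 2), followed by miR-484 (2801 ± 0.105), miR-451a (369 ± 125), miR-320b (183 ± 5.13), miR-1227-3p (85.3 ± 9.89), miR-320c (42.4 ± 13.3), miR-320a-5p (19.5 ± 22.6) and miR-1237-3p (9.79 ± 0.0745). Neighbours in that order had separate values in the 2 libraries, except that miR-320a-5p overlapped both miR-320c and miR-1237-3p. In null cells the order was led by miR-451a at 128 ± 23.2 RPM and miR-320a-3p at 118 ± 85.9 RPM, whose values overlapped.

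**Figure D1:**
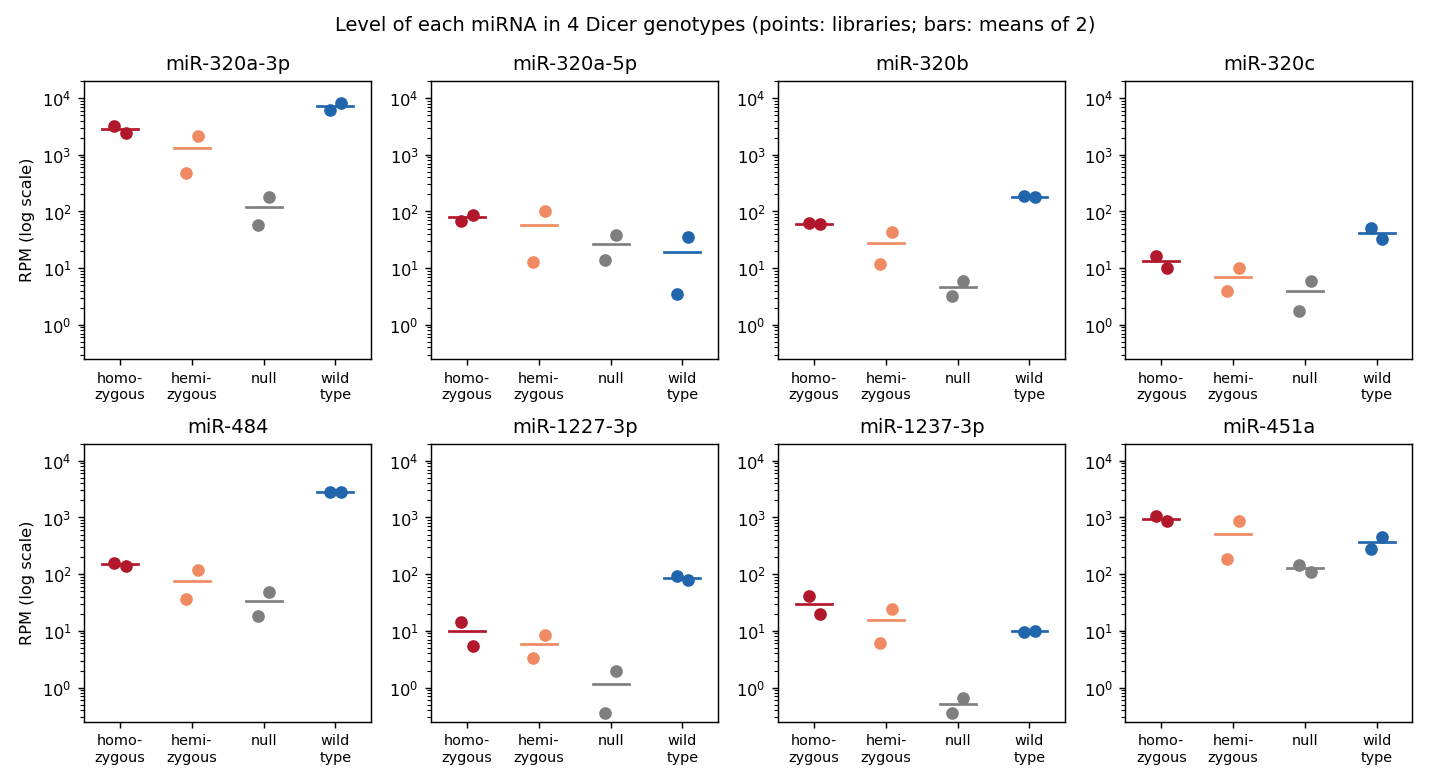
Level of each miRNA in RPM (log axis) in the homozygous, hemizygous, null and wild-type libraries, with a point per library and a bar at the mean of 2. A library with 0 reads is drawn at the 0.5 read that the authors added, as in both null libraries of miR-1237-3p. miR-484 and miR-1227-3p were below both wild-type libraries in all 6 others, while miR-451a and miR-1237-3p were above both in the homozygous libraries.

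Set against wild-type cells, the 8 did not move as a class in homozygous cells: miR-320a-5p rose, miR-484 and miR-1227-3p fell, and the other 5 did not pass the test. In homozygous libraries 3 of the 8 lay above both wild-type libraries and 5 below both, as did 38.2% and 43.3% of all miRNAs. The test was limma over all 594 miRNAs on log2(RPM + 1), with a Benjamini-Hochberg adjusted p under 0.05, and errors on log2 fold changes are its standard errors. Over all miRNAs 32.2% passed, 9.93% higher and 22.2% lower, with a median log2 fold change of -0.04, against 37.5% of the 8 and a median of -1.46. In hemizygous cells 5 of the 8 fell (miR-320a-3p, miR-320b, miR-320c, miR-484 and miR-1227-3p) and 0 rose, where 34.7% of all miRNAs passed, 4.04% higher and 30.6% lower, with a median of -0.89. These 5 lay below both wild-type libraries and 0 lay above, against 43.9% and 9.09% of all miRNAs. In null cells 6 fell and 0 rose, and miR-320a-5p and miR-451a did not pass, where 88.6% of all miRNAs passed, 1.35% higher and 87.2% lower, with a median of -4.49. Below both wild-type libraries lay 7 of the 8 and above them 0, against 90.2% and 2.53% of all miRNAs, so the counts in null cells were near the background. All comparisons with the wild type share its 2 libraries.

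The homozygous count rests on the spread that the fit shares between genotypes. It was 8 of 8 without hemizygous replicate 1 or 2, where 48.5% and 48% of all miRNAs passed, and in a fit of the homozygous and wild-type libraries alone, where 62.6% passed. It was 0 without homozygous replicate 2, where 6.06% of all miRNAs passed, and 1 without wild-type replicate 1, where 11.6% passed. The 8 homozygous fold changes kept their signs in every one of these settings. The hemizygous count was 2 in a fit of the hemizygous and wild-type libraries alone, where 18.4% passed.

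The calls also depend on the scale. With each library scaled to its own miRNA reads, 3 of the 8 rose in homozygous cells (miR-320a-5p, miR-1237-3p and miR-451a) and the other 5 fell, where 19.1% and 33.7% of all miRNAs did. Hemizygous cells had 5 lower and 0 higher on that scale, against 34.4% and 18.2% of all miRNAs. In null cells 4 fell (miR-320a-3p, miR-320b, miR-484 and miR-1227-3p) and 2 rose (miR-320a-5p and miR-451a), against 44.7% and 13.5%, while miR-320c at 0.24 and miR-1237-3p at -0.33 did not pass. Under median-ratio scaling miR-320a-5p, miR-1237-3p and miR-451a were called higher in homozygous and in hemizygous cells, and 4 were called lower in each, with miR-320c not passing. Of all miRNAs, 30.9% (homozygous) and 31.7% (hemizygous) were then called higher and 29.5% and 29.3% lower. The 3 hemizygous rises were 2.61 for miR-320a-5p (limma, adjusted p = 0.0144), 1.40 for miR-1237-3p (adjusted p = 0.0160) and 1.47 for miR-451a (adjusted p = 0.00943).

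**Figure D2:**
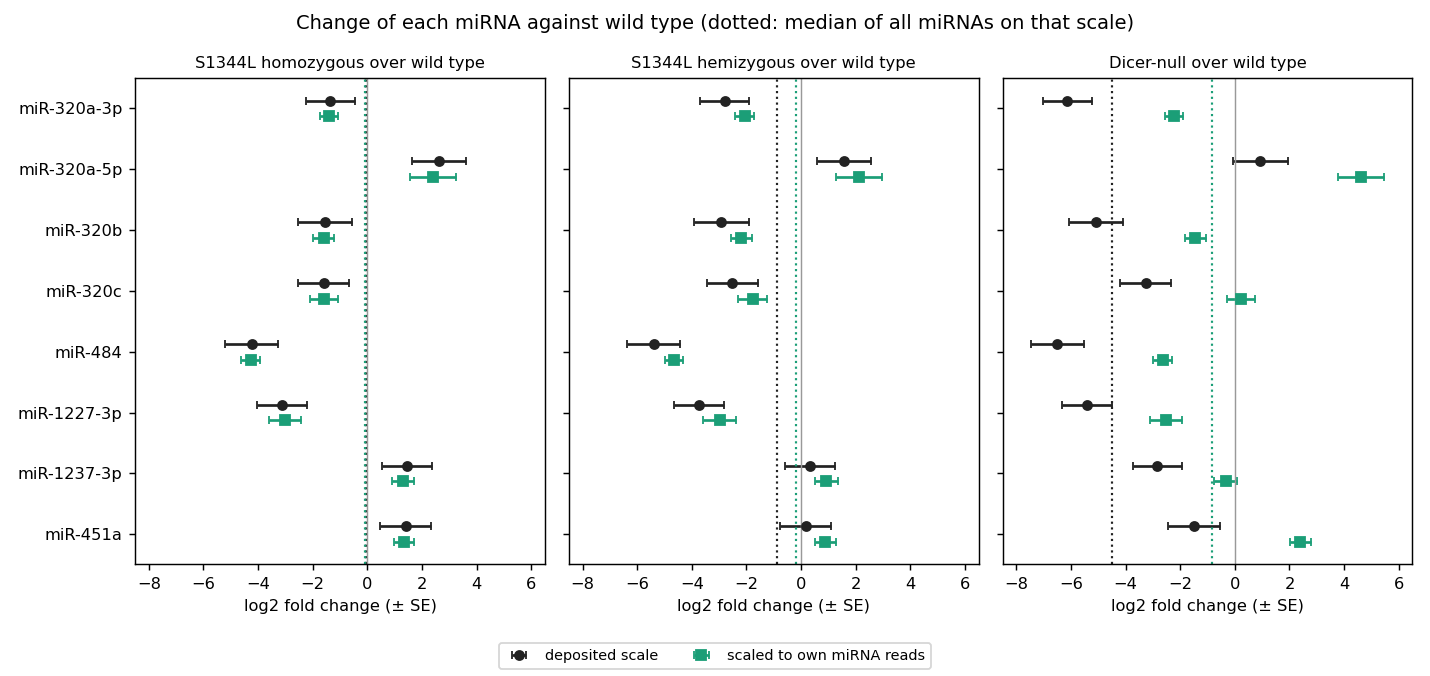
Log2 fold change against wild type with its standard error, in homozygous, hemizygous and null cells, on the deposited scale (black circles) and with each library scaled to its own miRNA reads (green squares); dotted lines mark the median of all miRNAs on each scale. In null cells the scales part, with medians of -4.49 and -0.84, and miR-451a lies at -1.49 on the deposited scale and at 2.40 on its own-read scale.

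The arms of miR-320a had log2 fold changes of opposite sign against wild type in all 3 genotypes, although without wild-type replicate 1 the sign of miR-320a-5p in null cells turned, to -0.57. miR-320a-3p, the arm that Argonaute normally holds, had 3196 and 2461 RPM in homozygous libraries, 483 and 2186 in hemizygous, 57.5 and 179 in null, and 6235 and 8259 in wild-type libraries. All 6 Dicer-altered libraries were below both wild-type libraries, and null was below all the others. The log2 fold change was -1.35 ± 0.89 in homozygous cells (adjusted p = 0.267), -2.80 ± 0.89 in hemizygous cells (adjusted p = 0.00642) and -6.13 ± 0.89 in null cells (adjusted p = 1.09e-10). miR-320a-3p ran against the other 3p arms in homozygous cells, whose median log2 fold change was 0.68, and 25 of the other 299 had a lower one. In null cells 1.63% of its wild-type level in RPM was left, while its share of the miRNA reads there was 0.223 times the wild-type share. The hemizygous call was lost without either wild-type library (adjusted p of 0.0829 and 0.161).

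miR-320a-5p, the passenger strand, was counted with 65 and 73 reads in homozygous libraries, 17 and 78 in hemizygous, 19 and 29 in null, and 4 and 41 in wild-type libraries. These came to 69.4 and 88.4 RPM in homozygous, 12.8 and 104 in hemizygous, 13.9 and 39.3 in null, and 3.50 and 35.5 RPM in wild-type libraries. Homozygous libraries were above both wild-type ones, hemizygous and null libraries overlapped them, and the wild-type libraries themselves lay far apart on few reads. Against wild type its log2 fold change was 2.63 ± 0.99 in homozygous cells (adjusted p = 0.0279), the only rise to pass the test among the 227 arms named 5p. It was 1.57 ± 0.99 in hemizygous cells (adjusted p = 0.234) and 0.94 ± 0.99 in null cells (adjusted p = 0.362), where 21 of the other 593 miRNAs had a higher value. On own miRNA reads the null change was 4.60 (adjusted p = 0.00221), and under median-ratio scaling it was 5.03 (adjusted p = 0.000971). The homozygous rise was 1.12 without wild-type replicate 1 and was also lost without either homozygous library.

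The ratio of the arms within a library does not depend on the scaling, apart from the 1 RPM added, and it separated wild-type cells from the rest. miR-320a-3p over miR-320a-5p, each with 1 RPM added, was 45.4 and 27.6 in homozygous libraries, 35.2 and 20.9 in hemizygous, 3.92 and 4.47 in null, and 1385 and 226 in wild-type libraries. Every wild-type ratio was above every S1344L ratio, and every S1344L ratio above every null ratio. On the log2 scale the ratio fell by 3.98 ± 0.71 in homozygous cells (limma over 186 hairpins with both arms, adjusted p = 0.000113), by 4.37 ± 0.71 in hemizygous cells (adjusted p = 5.33e-05) and by 7.06 ± 0.71 in null cells (adjusted p = 1.43e-05), lower in 2 of 2 libraries each time. In each comparison the other 185 hairpins all changed more toward 3p than miR-320a did, and the median hairpin was at 3.29, 2.87 and 0.27. A shift toward 5p passed the test in 1.08% of hairpins in homozygous cells, 2.15% in hemizygous cells and 18.3% in null cells. Without wild-type replicate 1, the library with 4 reads of miR-320a-5p, the changes were -2.68, -3.06 and -5.76.

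**Figure D3:**
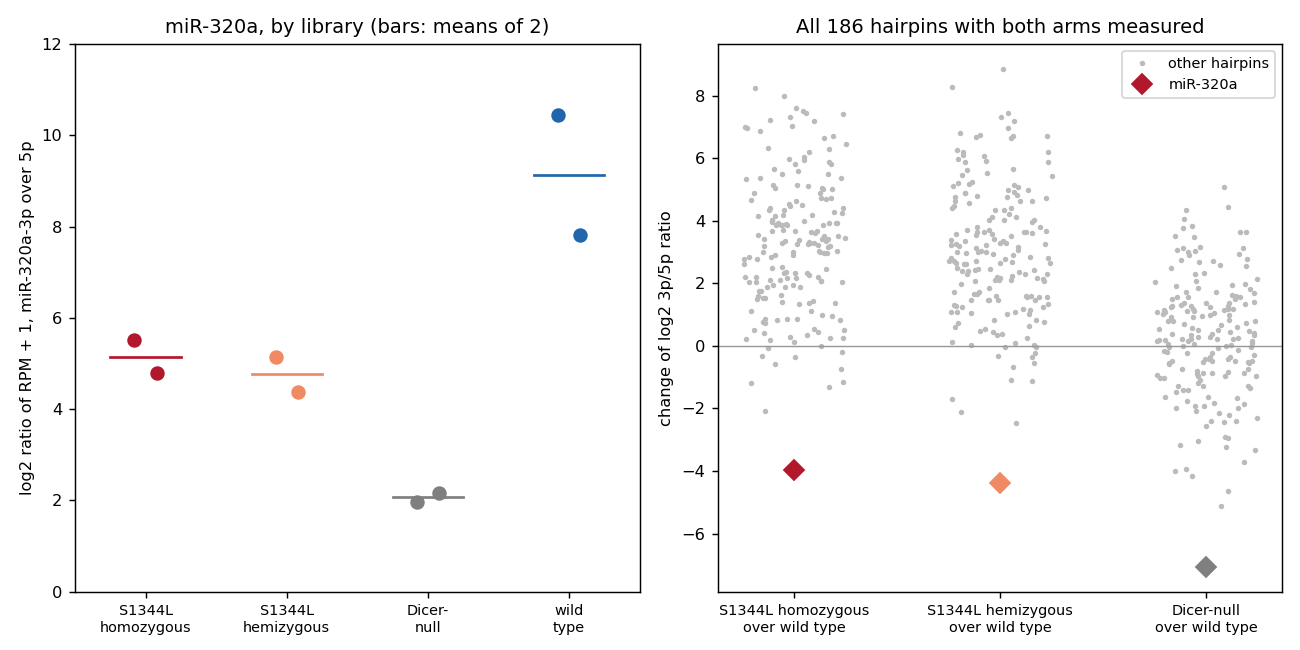
Left, the log2 ratio of miR-320a-3p over miR-320a-5p (RPM + 1) in each library, with bars at the mean of 2. Right, the change of the log2 3p/5p ratio against wild type for 186 hairpins, with miR-320a as a diamond at -3.98, -4.37 and -7.06, below all grey points in each genotype.

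miR-320b and miR-320c, family members from other loci, had log2 fold changes close to those of miR-320a-3p in S1344L cells. In wild-type cells miR-320a-3p was far more abundant, at a mean of 7247 RPM against 183 for miR-320b and 42.4 for miR-320c. Whether some of its reads were counted under either name was not checked. miR-320b had 62.0 and 60.7 RPM in homozygous libraries, 12.0 and 44.3 in hemizygous, 3.22 and 5.99 in null, and 186 and 179 in wild-type libraries. miR-320c had 16.4 and 10.2 RPM in homozygous libraries, 4.01 and 9.91 in hemizygous, 1.79 and 5.99 in null, and 51.8 and 32.9 in wild-type libraries. For both, each Dicer-altered library was below both wild-type libraries. The log2 fold change of miR-320b was -1.56 ± 1.00 in homozygous cells (adjusted p = 0.250), -2.92 ± 1.00 in hemizygous cells (adjusted p = 0.0129) and -5.08 ± 1.00 in null cells (adjusted p = 9.16e-07). For miR-320c it was -1.60 ± 0.93 (adjusted p = 0.196), -2.52 ± 0.93 (adjusted p = 0.0219) and -3.26 ± 0.93 (adjusted p = 0.000620) in the same order. The hemizygous falls of both were lost without any 1 of the homozygous or wild-type libraries.

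Set relative to miR-320a-3p in the same library, neither miR-320b nor miR-320c passed the test in S1344L cells. miR-320b differed from miR-320a-3p by -0.21 (95% interval -1.27 to 0.86) in homozygous cells and by -0.12 (-1.18 to 0.95) in hemizygous cells on the log2 scale. miR-320c differed by -0.24 (-1.58 to 1.10) in homozygous cells and by 0.29 (-1.05 to 1.63) in hemizygous cells. In null cells miR-320c fell less than miR-320a-3p, by 2.87 ± 0.60 (adjusted p = 0.00253), on 2 and 4 null reads, and miR-320b was at 1.05 ± 0.48 (adjusted p = 0.0779), on 4 reads in each null library. Of 593 miRNAs, 67.8% differed from miR-320a-3p in their change in homozygous cells, 75.2% in hemizygous cells and 65.3% in null cells, against 5, 4 and 4 of the 7 other miRNAs considered here. The 4 in null cells include miR-1237-3p, which had 0 reads in both null libraries. Its lowest possible fold change is set by the 1 RPM added, so that call is not read further. The 1 RPM also limits the null fall of miR-320c.

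miR-484 had the lowest log2 fold change of the 8 against wild type in homozygous and hemizygous cells, and in null cells on the scale with 1 RPM added. It had 157 and 140 RPM in homozygous libraries, 36.8 and 117 in hemizygous, 18.2 and 48.6 in null, and 2801 and 2801 RPM in wild-type libraries. All 6 Dicer-altered libraries were below both wild-type libraries, and homozygous cells kept 5.31% of the wild-type level. In log2 fold change it stood at -4.23 ± 0.97 in homozygous cells (adjusted p = 0.000226), -5.39 ± 0.97 in hemizygous cells (adjusted p = 1.13e-06) and -6.50 ± 0.97 in null cells (adjusted p = 3.37e-10). The homozygous call missed the threshold without homozygous replicate 2 (-4.15, adjusted p = 0.0502). As a share of the miRNA reads, miR-484 was at 0.0506 times the wild-type share in homozygous cells, 0.0386 times in hemizygous cells and 0.162 times in null cells. By that measure miR-1227-3p fell further in null cells, to 0.0939 times, on 0 and 1 read. The 1 RPM added limits the log2 fall of miR-1227-3p there. Although the name miR-484 gives no arm, its mature sequence sits on the 5′ side of the hairpin printed above. In homozygous cells 29 of the 227 arms named 5p and 1 of the 300 named 3p had a lower fold change, and the median 5p arm was at -2.25.

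Within Drosha-independent miRNAs, miR-484 and miR-320a-3p parted in S1344L cells. The ratio of miR-484 to miR-320a-3p, each with 1 RPM added, was 0.0495 and 0.0573 in homozygous libraries, 0.0781 and 0.0540 in hemizygous, 0.328 and 0.275 in null, and 0.449 and 0.339 in wild-type libraries. The S1344L ratios were below all null and wild-type ratios. The log2 ratio fell by 2.87 ± 0.37 in homozygous cells (limma relative to miR-320a-3p, adjusted p = 0.000172) and by 2.59 ± 0.37 in hemizygous cells (adjusted p = 0.000262). In null cells it was -0.38 ± 0.37 (adjusted p = 0.384, 95% interval -1.20 to 0.45). Set against null cells, the log2 ratio was -2.50 ± 0.37 in homozygous cells (adjusted p = 0.000332) and -2.21 ± 0.37 in hemizygous cells (adjusted p = 0.000910). Most miRNAs also differed from miR-320a-3p: 67.8% (homozygous) and 75.2% (hemizygous) against wild type, and 57.3% and 54.3% against null. The pair sets a miRNA of the 5′ side against a 3p arm. In homozygous cells the median 5p arm was at -2.25 against wild type and the median 3p arm at 0.68. Leaving out any 1 library kept the homozygous change against wild type between -3.08 and -2.67 and the hemizygous one between -2.85 and -2.32.

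The mirtrons, both read from the 3p arm, differed from each other. miR-1227-3p had 14.3 and 5.41 RPM in homozygous libraries, 3.28 and 8.59 in hemizygous, 0.357 and 2.00 in null, and 92.3 and 78.3 in wild-type libraries. Every Dicer-altered library was below both wild-type ones, and the null values stand for 0 and 1 read. The log2 fold change was -3.12 ± 0.91 in homozygous cells (adjusted p = 0.00390) and -3.75 ± 0.91 in hemizygous cells (adjusted p = 0.000275). In homozygous cells 5 of the other 299 arms named 3p had a lower value. Its homozygous call was lost without homozygous replicate 2 (-2.49, adjusted p = 0.215) or either wild-type library (adjusted p of 0.0768 and 0.0560). Against the 1 null read, the wild-type level was 183 times higher, with an exact 95% interval of 32.5 to 7272 for counting error only. As a share of the miRNA reads the wild-type level was 10.7 times the null one.

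miR-1237-3p had 40.8 and 19.8 RPM in homozygous libraries, 6.19 and 24.5 in hemizygous, and 9.73 and 9.84 in wild-type libraries, from 38, 16, 8, 18, 12 and 11 reads in turn. Homozygous libraries were above both wild-type libraries, and hemizygous libraries lay on both sides of them. Its log2 fold change against wild type was 1.45 ± 0.90 in homozygous cells (adjusted p = 0.232) and 0.33 ± 0.90 in hemizygous cells (adjusted p = 0.839). It had 0 reads in both null libraries. A floor of 3 reads in each null library was a mean of 3.07 RPM. Against it, on the deposited scale only, the level was at least 9.88-fold higher in homozygous, 4.99-fold in hemizygous and 3.19-fold in wild-type cells. As a share of the miRNA reads, 0 reads set no such bound. The 95% Wilson intervals of the null libraries reached 0.00232% and 0.00279%. These limits lay above the wild-type shares (0.000448% and 0.000404%) and the S1344L shares (0.000800% to 0.00166%).

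The ratio of miR-1237-3p to miR-1227-3p, each with 1 RPM added, was 2.73 and 3.25 in homozygous libraries, 1.68 and 2.65 in hemizygous, and 0.115 and 0.137 in wild-type libraries. miR-1237-3p was thus the more abundant mirtron in all 4 S1344L libraries and the less abundant in both wild-type libraries. This ratio, chosen after the values were seen, was higher by 4.57 ± 0.78 on the log2 scale in homozygous cells (limma, adjusted p = 2.21e-08) and by 4.07 ± 0.78 in hemizygous cells (adjusted p = 6.22e-07). Of the other miRNAs 74.2% and 71.2% also differed from miR-1227-3p in these comparisons. Leaving out any 1 library gave between 4.44 and 4.70 in homozygous cells and between 3.74 and 4.40 in hemizygous cells. The null ratio rests on 0 and 1 read and is not read further. Of 23 other arms of hairpins listed as mirtrons 0 were measured, and of miR-320d and miR-320e 0 were measured.

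**Figure D4:**
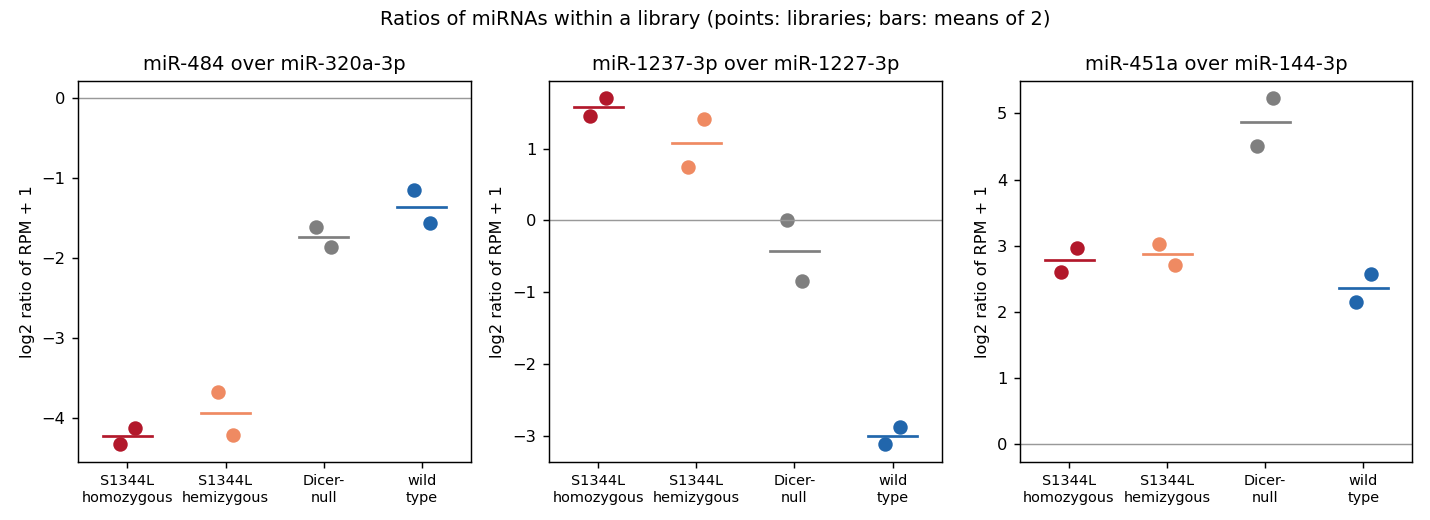
Log2 ratios (RPM + 1) of miR-484 over miR-320a-3p, miR-1237-3p over miR-1227-3p and miR-451a over miR-144-3p in each library, with bars at the mean of 2. The first ratio was lowest in the S1344L libraries (0.0495 to 0.0781), the middle one lowest in wild-type libraries (0.115 and 0.137), and the last one highest in null libraries (22.8 and 37.4).

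In null cells miR-451a kept a larger part of its wild-type level than the other miRNAs considered here, apart from miR-320a-5p. It had 1055 and 855 RPM in homozygous libraries, 189 and 852 in hemizygous, 144 and 111 in null, and 281 and 457 in wild-type libraries. Both homozygous libraries were above, and both null libraries below, both wild-type ones, and the hemizygous libraries lay on both sides. The log2 fold change was 1.40 ± 0.94 in homozygous cells (adjusted p = 0.279), 0.16 ± 0.94 in hemizygous cells (adjusted p = 0.922) and -1.49 ± 0.94 in null cells (adjusted p = 0.121). Null cells held 34.6% of the wild-type level of miR-451a, and 61 of the other 593 miRNAs had a higher fold change there.

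As a share of the miRNA reads, miR-451a stood higher in null cells. It made up 0.0435% (95% Wilson interval 0.0409 to 0.0463) and 0.0392% (0.0364 to 0.0422) in homozygous libraries, and 0.0259% (0.0229 to 0.0292) and 0.0351% (0.0325 to 0.0380) in hemizygous. It made up 0.122% (0.106 to 0.140) and 0.0603% (0.0486 to 0.0747) in null libraries, and 0.0134% (0.0121 to 0.0149) and 0.0196% (0.0180 to 0.0213) in wild-type libraries. Each Dicer-altered library had a larger share of miR-451a than either wild-type library, and both null libraries had the largest. With each library scaled to its own miRNA reads, its log2 change in null cells was 2.40 (limma, adjusted p = 0.00118), while the median miRNA was at -0.84. Its rank by abundance was 154 in both homozygous libraries, 180 and 162 in the hemizygous, 79 and 126 in the null, and 277 and 252 in the wild type.

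miR-451a has a canonical neighbour for comparison. MIR451A (chr17:28861369-28861440) and MIR144 (chr17:28861533-28861618) lie 92 bases apart on the minus strand, in the same exon of the lincRNA AC024267.1 in GENCODE release 29, and miR-144 is cut by Dicer. miR-144-3p had 173 and 109 RPM in homozygous libraries, 22.2 and 129 in hemizygous, 5.36 and 2.00 in null, and 62.7 and 75.7 in wild-type libraries. The ratio of miR-451a to miR-144-3p, each with 1 RPM added, was 6.07 and 7.80 in homozygous libraries, 8.18 and 6.57 in hemizygous, 22.8 and 37.4 in null, and 4.42 and 5.97 in wild-type libraries. Both null ratios were above all the others. The log2 ratio was 2.51 higher in null than in wild-type cells (exact two-sided permutation test, p = 0.333, the smallest that 2 against 2 libraries allow). In a limma fit relative to miR-144-3p, added after the values were seen, the same difference had an adjusted p of 0.0373, which was lost without any 1 of the hemizygous, homozygous or wild-type libraries (0.0819 to 0.428) and in a fit of the null and wild-type libraries alone (0.357). It rests on 7 and 1 null reads of miR-144-3p, and 17.2% of miRNAs differed from miR-144-3p there. In S1344L cells the change was 0.42 ± 0.90 (homozygous, adjusted p = 0.770) and 0.51 ± 0.90 (hemizygous, adjusted p = 0.735), where 37.9% and 35.4% of miRNAs differed from it.

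Markers of blood cells were measured beside miR-451a. Of 4 erythroid markers 3 were measured (miR-144-3p, miR-486-5p and miR-486-3p), and their summed level was 274 and 197 RPM in homozygous libraries, 43.4 and 260 in hemizygous, 67.5 and 79.2 in null, and 602 and 815 in wild-type libraries. That sum was below the wild type in every Dicer-altered library. As a share of the summed miRNA RPM it was 0.0113% and 0.00901% in homozygous and 0.00595% and 0.0107% in hemizygous libraries. It was 0.0571% and 0.0431% in null and 0.0288% and 0.0349% in wild-type libraries, highest in null cells, as was miR-451a. Most of the null sum was miR-486-5p, at 56.8 and 69.9 RPM. The share of miR-144-3p alone was 0.00453% and 0.00109% in null libraries, below both homozygous ones (0.00714% and 0.00499%). The wild-type libraries, at 0.00300% and 0.00325%, lay between the null values. The 3 did not move alike. miR-144-3p, given above, was above both wild-type libraries in both homozygous ones, as was miR-451a. miR-486-5p, from another red blood cell locus, was below them, with 62.0 and 41.5 RPM in homozygous libraries and 522 and 652 RPM in wild-type libraries. miR-486-3p overlapped them, with 38.7 and 46.3 RPM in homozygous libraries and 17.5 and 87.7 RPM in wild-type libraries. Of 4 white blood cell markers 3 were measured, at a summed 1166 and 1040 RPM in homozygous libraries, 317 and 1248 in hemizygous, 13.9 and 28.6 in null, and 1265 and 1475 in wild-type libraries. None of the measured erythroid markers was at 0 reads in any library, and their part in the level of miR-451a was not tested.

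Compared with null cells, homozygous cells had more of 6 of the 8 (miR-320a-3p, miR-320b, miR-484, miR-1227-3p, miR-1237-3p and miR-451a), and less of 0, where 78.3% of all miRNAs passed, 76.3% higher and 2.02% lower. Hemizygous cells had more of 3 (miR-320a-3p, miR-320b and miR-1237-3p), and less of 0, where 64.8% passed, 63.8% higher and 1.01% lower. The hemizygous call of miR-320b (adjusted p = 0.0470) was lost in 7 of 8 fits without 1 library. miR-320a-3p was 4.77 ± 0.89 above null on the log2 scale in homozygous cells (limma, adjusted p = 2.82e-07) and 3.32 ± 0.89 above it in hemizygous cells (adjusted p = 0.000455), where the median miRNA was at 3.92 and 2.89. On own miRNA reads these differences were 0.82 (adjusted p = 0.0568) and 0.16 (adjusted p = 0.688), and both calls were lost; under median-ratio scaling they were 0.78 (adjusted p = 0.0339) and 0.24 (adjusted p = 0.467). miR-484 was 2.28 ± 0.97 above null in homozygous cells (adjusted p = 0.0255) and at 1.11 ± 0.97 in hemizygous cells (adjusted p = 0.309). miR-451a was 2.90 ± 0.94 above null in homozygous cells (adjusted p = 0.00311) and at 1.66 ± 0.94 in hemizygous cells (adjusted p = 0.109). With each library scaled to its own miRNA reads, miR-320a-5p, miR-320c, miR-484 and miR-451a were instead lower in both S1344L genotypes than in null cells and passed the test, as did 30.9% (homozygous) and 31.7% (hemizygous) of all miRNAs. miR-1237-3p stayed called higher there, at 1.63 and 1.25, as were 36.6% and 32.9% of all miRNAs. With 0 reads in both null libraries, its null value on that scale is only the 0.5 of a read added. These 2 differences therefore rest on that addition and are not read further. On that scale miR-484 was at -1.63 in homozygous cells (adjusted p = 0.00317) and at -2.01 in hemizygous cells (adjusted p = 0.00124), and miR-451a at -1.06 (adjusted p = 0.0362) and -1.51 (adjusted p = 0.00852). Relative to miR-320a-3p, 6 of the other 7 differed from null in homozygous cells and 5 of 7 in hemizygous cells, against 57.3% and 54.3% of miRNAs. The ratio of miR-320a-3p to miR-320a-5p was 3.08 ± 0.71 above null on the log2 scale in homozygous cells (adjusted p = 0.00109) and 2.69 ± 0.71 above it in hemizygous cells (adjusted p = 0.00306). The median hairpin changed by 3.03 and 2.66 in these comparisons, and 80.1% and 80.6% of hairpins passed.

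Between the S1344L genotypes no difference passed the test. Of the 8 miRNAs 0 were called between hemizygous and homozygous cells, as were 0 of all 594 (0%), and log2 fold changes of the 8 lay between -1.45 and -0.63, around a median of -0.85 for all miRNAs. At an unadjusted p under 0.05, 0 of the 8 passed as well. The adjusted p was between 0.661 and 0.674. Hemizygous replicate 1 lay below replicate 2 for each of the 8, and without replicate 2, 5 of the 8 were called lower in hemizygous cells, as were 72.2% of all miRNAs.

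The miRNAs nearest in pattern over the 8 libraries were sought for miR-320a-3p, miR-484, miR-1227-3p and miR-451a, by Euclidean distance of centred log2(RPM + 1) among 492 miRNAs with a mean of at least 50 RPM in a genotype. miR-320c and miR-1237-3p were below that limit, and none of the other 6 was among the 3 nearest. Nearest to miR-320a-3p was miR-1306-5p at a distance of 0.634, then miR-27b-3p (0.726) and miR-103a-3p (0.766). miR-27b-3p had log2 fold changes of -1.10 in homozygous, -2.34 in hemizygous and -6.21 in null cells against wild type. Nearest to miR-484 was miR-1301-3p (0.634), followed by the 5p arms miR-183-5p (0.769) and miR-425-5p (0.808). miR-183-5p had log2 fold changes of -4.22, -4.95 and -6.42 in the same order. Nearest to miR-1227-3p were miR-105-5p (0.945), miR-4707-3p (0.980) and miR-151a-5p (0.988). The nearest to miR-451a lay farther away, with miR-21-3p at 1.02, miR-33a-3p at 1.25 and miR-625-5p at 1.42.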

How the data were processed

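Per the labels, total RNA from biologically independent H1 cultures received spike-in RNAs and was ligated, size-selected, amplified and sequenced as single-end reads. Per the submitters' processing notes, cutadapt, limma and the hg38 build were used; the aligner, the counting, the miRNA annotation and the denominator were not stated in the sources at hand. The authors deposited log2 values, read from the values themselves as log2 RPM with 0.5 of a read added. Whole reads were recovered to within 7.28e-09 of a read. The deposited log2 values were turned back to RPM, and limma 3.58.1 in R 4.3.3 was fitted with a variance trend to log2(RPM + 1) of the 594 miRNAs in 8 libraries (at least 5 RPM in at least 2 libraries), as a two-sided test with Benjamini-Hochberg adjustment and a threshold of 0.05. The prior degrees of freedom were infinite, so the fit pools the spread across miRNAs. The analysis had been planned for CPM; the unit found was log2.

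Log2 ratios of the arms of 186 hairpins, and of every miRNA to miR-320a-3p, were fitted in the same way. The p-values measure the spread between these libraries. A read was worth 0.715 to 1.33 RPM, the limit that 0 reads allow was taken as 3 reads, and 95% Wilson intervals cover counting error only. Scripts were tested on simulated data. The members, lists and tests were chosen with earlier results of these data known, and named miRNAs are the 8 members, miR-144-3p and the 3 nearest to each of miR-320a-3p, miR-484, miR-1227-3p and miR-451a; marker miRNAs come from fixed lists. The fibroblast list (3 of 5 measured) summed to 259 and 215 RPM in homozygous, 74.7 and 208 in hemizygous, 1.79 and 8.65 in null, and 309 and 410 in wild-type libraries. Sequences are from RefSeq (GRCh38.p14) and host genes from GENCODE release 29. Alternatives were pseudocounts of 0.5 and 5 RPM, no filter and a filter of 50 RPM, scaling to own miRNA reads, median-ratio scaling, a fit of the compared libraries alone, a replicate block and the omission of each library in turn.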

Additional observations from a re-analysis of the deposited data

How the results depend on the processing

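The counts and fold changes were recomputed under 16 alternatives, and ratios within a library under those other than the scalings. The main filter removed no miRNA, so the alternative without a filter repeats the main fit. Against wild type and against null, the change of the miR-320a 3p/5p ratio passed the test in the same direction in every alternative that gave a value (hemizygous against homozygous it was -0.39 and did not pass); leaving out 1 library gave -5.29 to -2.68 (homozygous), -5.68 to -3.06 (hemizygous) and -8.37 to -5.76 (null) against wild type, and 2.72 to 3.44 (homozygous) and 2.32 to 3.07 (hemizygous) against null. The log2 ratio of miR-451a to miR-144-3p in null against wild-type cells was 2.15 to 2.86 without 1 library. Counts of the 8 passing the test moved most. Against wild type, the homozygous count was 8 on own miRNA reads, 7 under median-ratio scaling, 8 in a fit of the compared libraries alone and 0 to 8 without 1 library (0 without homozygous replicate 2, 8 without either hemizygous library). The hemizygous count was 2 in a fit of the compared libraries alone, where 18.4% of all miRNAs passed. Against null the hemizygous count was 5 on own miRNA reads and 5 under median-ratio scaling, each with 1 higher and 4 lower. In the main fit it was 3, all higher. Of all miRNAs 64.6% and 66.9% passed on these scales, and 64.8% in the main fit. Without 1 library, the hemizygous count against wild type, both counts against null and the count between the S1344L genotypes also moved. The share of all miRNAs that passed moved in these fits as well, so such counts are not read as a trait of the 8. Counts differing from miR-320a-3p were 2 with a filter of 50 RPM (null against wild type), 3 to 6 (homozygous against null) and 2 to 4 (hemizygous against null) without 1 library. A filter of 50 RPM leaves fewer miRNAs tested; other causes were not tested.

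Scaling moved the median of all miRNAs, on own miRNA reads to -0.10 (homozygous), -0.18 (hemizygous) and -0.84 (null) against wild type and to 0.37 and 0.16 (homozygous and hemizygous) against null, and under median-ratio scaling to 0.36, 0.34, -0.34, 0.33 and 0.24 in the same order. The null-based signs turned with it. In null against wild-type cells, miR-320c was at 0.24 and miR-451a at 2.40 on own reads, and miR-320c at 0.71, miR-1237-3p at 0.064 and miR-451a at 2.90 under median-ratio scaling. In homozygous against null cells, on own reads and under median-ratio scaling, miR-320a-5p was at -2.19 and -2.23, miR-320b at -0.16 and -0.20, miR-320c at -1.81 and -1.86, miR-484 at -1.63 and -1.67, miR-1227-3p at -0.50 and -0.53, and miR-451a at -1.06 and -1.10. In hemizygous against null cells the values were -2.49 and -2.42 for miR-320a-5p, -0.75 and -0.67 for miR-320b, -2.02 and -1.96 for miR-320c, -2.01 and -1.94 for miR-484, -0.47 and -0.40 for miR-1227-3p, and -1.51 and -1.43 for miR-451a. In hemizygous against homozygous cells miR-1227-3p was at 0.030 and 0.13.

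The other turns of sign were in values that did not pass the test. Without 1 library, miR-1237-3p was at -0.58 to 1.24 and miR-451a at -0.92 to 1.25 in hemizygous against wild-type cells, and miR-320a-5p at -0.57 to 2.44 in null against wild-type cells, -2.53 to 0.40 in hemizygous against homozygous cells and -0.83 to 2.10 in hemizygous against null cells. Relative to miR-320a-3p, miR-320b was at -0.44 to 0.026 in homozygous and -0.35 to 0.11 in hemizygous against wild-type cells, miR-320c at -0.76 to 0.28 and -0.24 to 0.81, and miR-1237-3p at -1.14 to 0.18 in homozygous and -0.82 to 0.51 in hemizygous against null cells. Relative to miR-144-3p, miR-451a was at -0.089 to 0.27 in hemizygous against homozygous cells. miR-1237-3p relative to miR-320a-3p was at 0.077 (homozygous) and 0.36 (hemizygous) against null with a pseudocount of 0.5 RPM, and miR-320b at 0.10 in hemizygous against wild-type cells with 5 RPM.

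Replicate numbers were not taken as pairs in the main fit. Same-numbered hemizygous and wild-type libraries deviated together across miRNAs (r = 0.62), while the other pairs of genotypes had r between -0.11 and 0.097. With the replicate block the counts of the 8 stayed at 3, 5 and 6 against wild type (homozygous, hemizygous, null) and 6 and 3 against null (homozygous, hemizygous), and 1 call was lost, the lower miR-451a relative to miR-144-3p in homozygous against null cells (adjusted p = 0.0588). Depth limits miR-320b, miR-320c and both mirtrons in null cells, which rest on single-digit reads. In the wild type miR-320a-5p rests on 4 and 41 reads from libraries of similar depth. The 95% Wilson intervals of its share did not overlap there, so the gap between these libraries exceeds counting error.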
